A study of Homo sapiens with 15 samples.

Results

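Translesion synthesis and damage tolerance genes let a cell finish copying DNA that still carries a lesion. The list held 10 genes, and the identifiers of the deposited table gave a row for 9 of them, among 16604 genes in all: POLH, POLK, POLI, REV1, REV3L, POLQ, RAD18, PRIMPOL and HLTF. The gene SLFN11 is not analysed here. The genes were listed by name, and earlier results of these data were known when the list was made.

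Cisplatin and carboplatin join bases of DNA to each other, and replicative polymerases stall at these adducts. RAD18 marks the sliding clamp PCNA with ubiquitin at a stalled fork, REV1 gathers bypass polymerases there, and inserters such as polymerase eta (POLH), kappa (POLK) and iota (POLI) place a base opposite the lesion. Polymerase zeta, whose catalytic subunit is REV3L, extends the strand past it. PRIMPOL instead restarts synthesis beyond the lesion, HLTF reverses the fork or switches the template, and polymerase theta (POLQ) joins ends and fills gaps that remain.

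Expression was measured by RNA sequencing in 15 samples of 5 human cell lines grown in culture, with 3 replicates per line. Ovcar4Parental is OVCAR4, an established cell line grown from a high-grade serous tumour of the ovary, and is labelled sensitive to both drugs. From it came Ov4Cis, selected in rising cisplatin and labelled cisplatin resistant, and Ov4Carbo, selected in rising carboplatin and labelled carboplatin resistant. Ov4Carbo4 and Ov4Carbo7, also labelled carboplatin resistant, each grew from a single cell of Ov4Carbo, so each is 1 clone, and each drug was represented by 1 selected population. The labels name no treatment at harvest.

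Values are log2 RPKM, read counts scaled by gene length and library size, on a log scale, adjusted by the authors for length and GC content, so levels may be compared between genes. Depth per sample is unknown and the replicate spread is the only measure of precision. Of 9 serous ovarian cancer markers all had a row, and the lineage factor PAX8 lay between 5.85 and 6.74 as line means. WT1 was low throughout, at -5.07 to -1.52, and MUC16 was at -1.73 in Ov4Cis and -0.21 in Ov4Carbo7. Against the parental line 7, 5, 6 and 6 of the 9 were lower in the lines Ov4Cis, Ov4Carbo, Ov4Carbo4 and Ov4Carbo7. Of all genes 16.4%, 16.2%, 18% and 20.4% were lower. In turn 1, 2, 1 and 1 of the 9 were higher, where 19.8%, 17.7%, 21.6% and 22.2% of all genes were. The epithelial genes KRT7, KRT8, KRT18, EPCAM and CDH1 each fell in all 4 lines, least in EPCAM in Ov4Carbo (-0.66) and most in KRT7 in Ov4Cis (-8.85). MSLN rose by 0.82 in Ov4Carbo. From its low level WT1 rose by 3.56 in Ov4Cis, by 2.38 in Ov4Carbo and by 2.81 in Ov4Carbo4. PAX8 rose in Ov4Carbo7, from a parental mean of 6.01 to 6.74. Of 4 endothelial markers 3 had a row: CDH5 lay between 2.15 and 5.13, KDR between -4.59 and -0.89 and VWF between -1.65 and -0.18. Of 6 fibroblast markers 4 had a row: COL1A1 lay between 2.26 and 3.63, COL1A2 between -4.41 and 1.39, LUM between -6.02 and -1.73 and PDGFRB between -5.66 and -1.51. COL1A2 fell in all 4 lines, with changes from -5.80 to -4.24, and COL1A1 rose by 1.21 in Ov4Carbo4. The part of these shifts in the results was not tested. Of the leukocyte markers 2 of 6 had a row, with line means at or below 0.58. The sources describe the replicates as biological. Those of Ov4Carbo differed most from each other, with a root-mean-square difference of 0.69 log2 units per gene against 0.34 to 0.48 in the other lines. Replicate 1 of Ov4Carbo carries a title number from the same series as the clones, whereas replicates 2 and 3 share a series with the parental line and Ov4Cis. The labels do not call these series batches, and Ov4Carbo is the sole line in both, so a fit with a term for the title series separates series from line through its 3 samples only.

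The promoters of REV3L, REV1 and HLTF are shown because these are among the 4 genes of widest range between lines. That of POLH, the other, is not printed since its window overlaps a neighbouring gene's exon. Each stretch is the 250 bases before the start in RefSeq (GRCh38.p14), in the sense of the gene. Capitals mark matches on either strand to the GC box GGGCGG, the CCAAT box CCAAT, the E-box CACGTG, or the E2F motifs TTTGGCGC and TTTCCCGC. Adjoining capitals may be 2 matches that touch or overlap. Matches are descriptions of the letters only.
REV3L (chr6:111483712-111483961, minus strand): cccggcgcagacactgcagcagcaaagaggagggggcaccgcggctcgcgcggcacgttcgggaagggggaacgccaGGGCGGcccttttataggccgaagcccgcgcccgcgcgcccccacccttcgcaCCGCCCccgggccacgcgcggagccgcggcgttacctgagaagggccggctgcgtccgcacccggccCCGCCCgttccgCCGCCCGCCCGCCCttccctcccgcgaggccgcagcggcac
REV1 (chr2:99490018-99490267, minus strand): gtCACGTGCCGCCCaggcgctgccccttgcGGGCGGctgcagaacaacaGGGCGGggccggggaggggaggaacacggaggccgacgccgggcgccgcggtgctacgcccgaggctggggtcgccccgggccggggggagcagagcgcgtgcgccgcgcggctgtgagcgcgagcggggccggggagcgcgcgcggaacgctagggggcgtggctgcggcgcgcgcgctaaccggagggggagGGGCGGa
HLTF (chr3:149086534-149086783, minus strand): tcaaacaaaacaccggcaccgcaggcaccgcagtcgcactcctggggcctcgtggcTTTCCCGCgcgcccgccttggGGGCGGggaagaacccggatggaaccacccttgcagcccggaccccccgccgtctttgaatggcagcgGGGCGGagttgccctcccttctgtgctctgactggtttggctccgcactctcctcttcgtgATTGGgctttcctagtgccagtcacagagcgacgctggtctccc

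All 9 genes matched the RefSeq promoter table. REV3L and REV1 had dense CpG promoters, with 40 and 42 CpG in 250 bases, at or above the count in 98.3% and 99.0% of the 35116 windows in the table, whose median was 11. REV3L refers to its first start. HLTF had 20 CpG. The GC box, which 42.6% of all windows hold, matched 6 times in REV3L, 4 times in REV1 and 2 times in HLTF. HLTF also held TTTCCCGC, present in 1.39% of all windows, and CCAAT, present in 32.0%. CACGTG matched once in REV1 and is held by 6.34% of windows. The interferon-stimulated response element, held by 3.02% of windows, and TTTGGCGC, held by 0.55%, had no match in these 3 windows.

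Across the 5 lines, 8 of the 9 genes differed by limma's moderated F-test (adjusted p under 0.05), where 76.9% of all genes did. POLQ was the exception, with an adjusted p of 0.350. The changes were modest. Of 90 comparisons of 1 gene between 2 lines, 29 passed, where 40% of all such comparisons over all genes did. Of these 3 reached 2-fold, all of REV3L, where 15.4% did over all genes. Ordered by level, HLTF was highest with a mean of 5.37 log2 RPKM over all samples, followed by RAD18 at 3.83. POLQ, REV1, REV3L and POLH lay from 3.23 to 3.52. POLK stood at 2.73, PRIMPOL at 1.25 and POLI at 0.60.

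**Figure D1:**
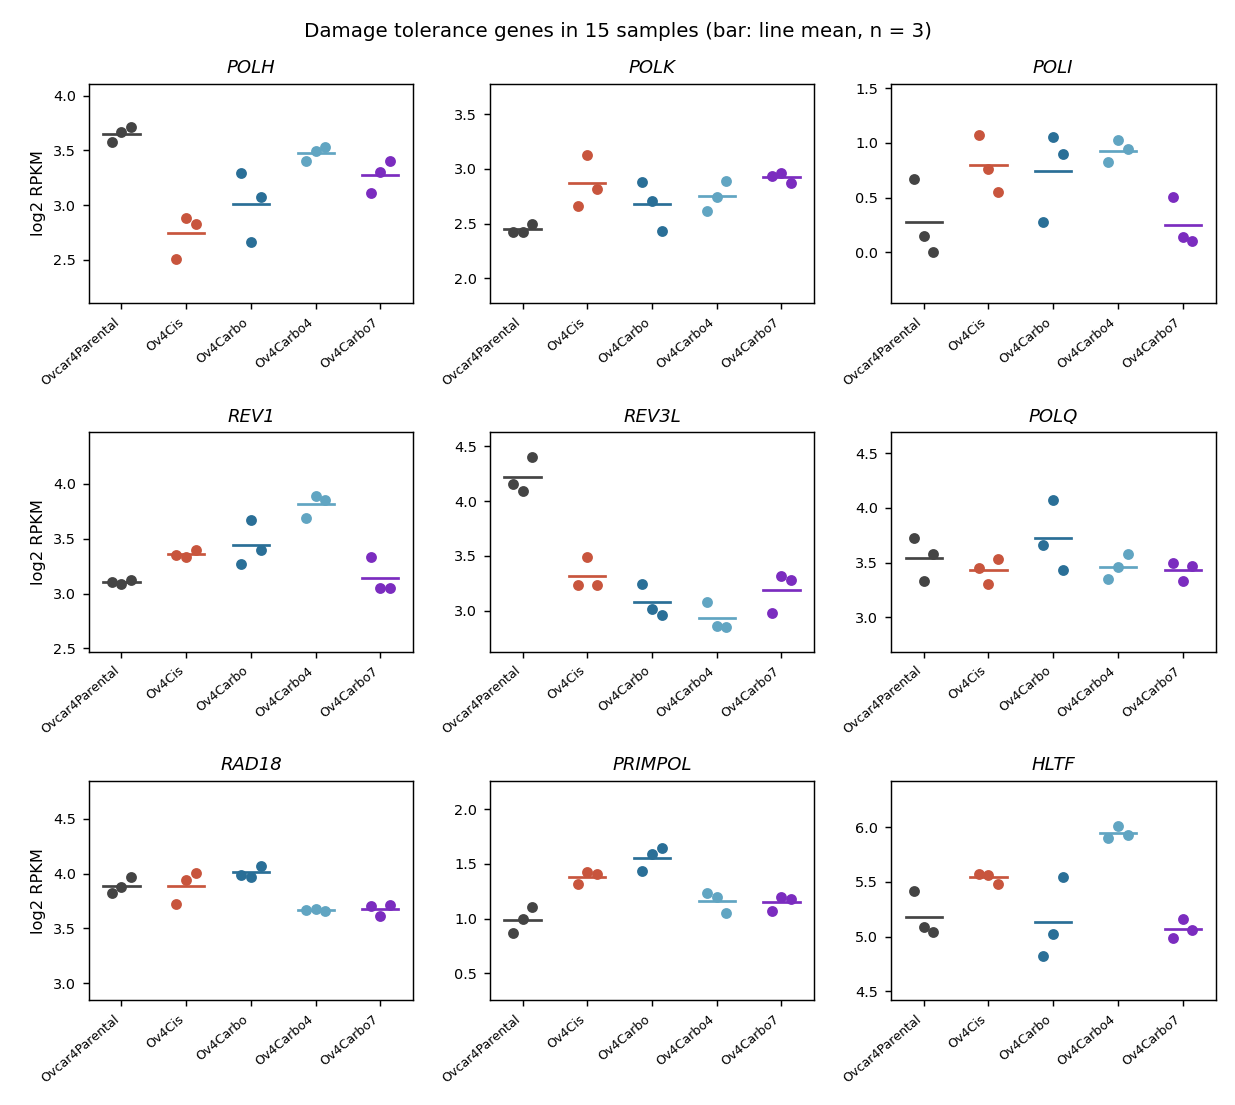
Log2 RPKM of the 9 genes (y axis, 2 log2 units high in each panel) in each of the 15 samples by cell line (x axis), with bars at the line means (n = 3). REV3L separated all resistant samples from the parental ones, while POLQ samples overlapped across lines.

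Against the parental line, 4 of the 9 genes passed in Ov4Cis, 2 higher and 2 lower, where 36.2% of all genes passed. Ov4Carbo also had 4, 2 higher and 2 lower, against 34% of all genes. Ov4Carbo4 had 4, of which 3 were higher and 1 lower, against 39.7%, and Ov4Carbo7 had 2, 1 in each direction, against 42.6%. By direction, 19.8% of all genes were higher and 16.4% lower in Ov4Cis, 17.7% and 16.2% in Ov4Carbo, 21.6% and 18% in Ov4Carbo4, and 22.2% and 20.4% in Ov4Carbo7. The 2-fold minimum left 0, 1, 1 and 1 of the 9, where 15.9%, 12.7%, 15.1% and 17% of all genes reached it. Samples did not overlap with the parental ones for 6, 4, 7 and 4 of the 9, where 53.4%, 38.4%, 58.1% and 56.5% of all genes did not. The median log2 fold change of the 9 genes was 0.25 in Ov4Cis and 0.18 in Ov4Carbo. It was 0.17 and -0.11 in the clones Ov4Carbo4 and Ov4Carbo7, beside medians over all genes between 0.02 and 0.07. The 4 comparisons share the parental samples.

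**Figure D2:**
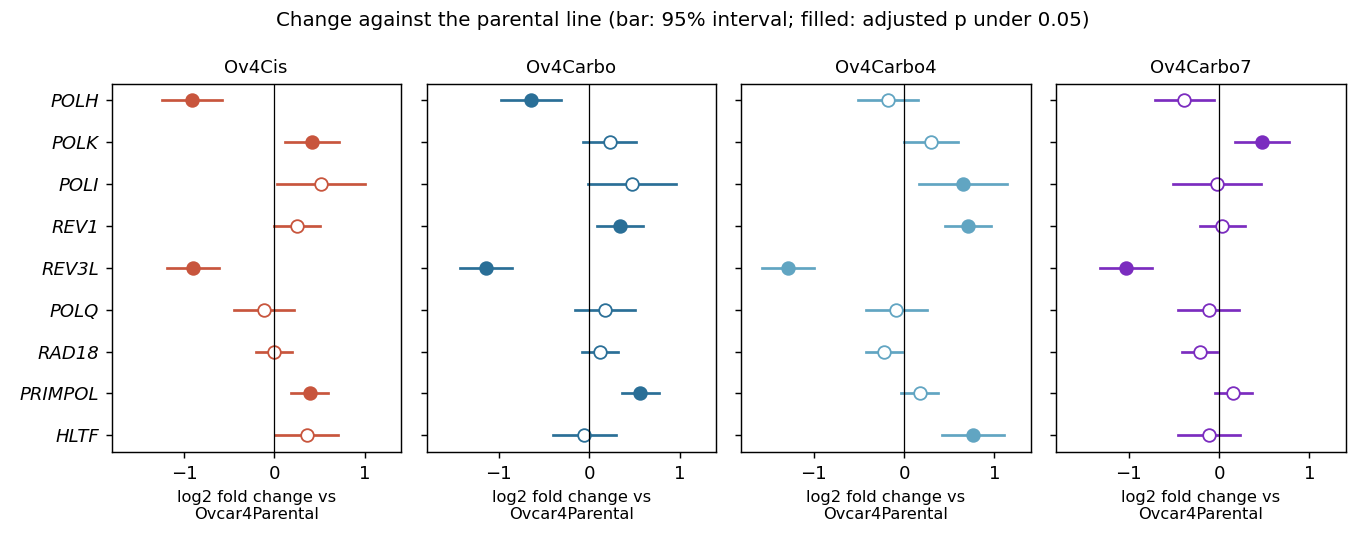
Log2 fold change of each gene against Ovcar4Parental (x axis) in the 4 resistant lines, with 95% intervals as bars and filled points at an adjusted p under 0.05. REV3L is filled in every line, from -0.90 in Ov4Cis to -1.29 in Ov4Carbo4, and POLH in Ov4Cis and Ov4Carbo.

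REV3L (ENSG00000009413, chromosome 6), the catalytic subunit of polymerase zeta, fell in all 4 resistant lines. A fall in all 4 was found for 3.26% of all genes, and 1 of the 9 genes showed it. A rise in all 4, found for 4.49% of all genes, occurred in 0 of the 9. In the parental line its values were 4.16, 4.10 and 4.40 log2 RPKM. Ov4Cis gave 3.24, 3.49 and 3.23, and Ov4Carbo gave 3.24, 3.02 and 2.96. The highest resistant value in these populations was thus below the lowest parental one. Ov4Carbo4 gave 3.08, 2.86 and 2.85, and Ov4Carbo7 gave 2.98, 3.32 and 3.28. No sample of either clone reached the parental range.

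In Ov4Cis, REV3L was at 0.535 of the parental level, which on the log2 scale is -0.90 (SE 0.13, adjusted p = 1.67e-04 by limma). It was at 0.452 in Ov4Carbo (-1.14, SE 0.13, adjusted p = 4.66e-05) and at 0.410 in Ov4Carbo4 (-1.29, SE 0.13, adjusted p = 1.12e-05). Ov4Carbo7 stood at 0.490 (-1.03, SE 0.13, adjusted p = 5.50e-05). Each of these falls passed in all 24 alternative fits, with log2 fold changes between -1.54 and -0.81, though the fall in Ov4Cis is short of 2-fold. Among the resistant lines the order ran from Ov4Cis through Ov4Carbo7 and Ov4Carbo to Ov4Carbo4, and no neighbours in this order differed beyond their spread. The ends did, with REV3L higher in Ov4Cis than in Ov4Carbo4 by 0.39 (SE 0.13, adjusted p = 0.0311). That call was lost with a replicate block (adjusted p = 0.0542) and with the title series term, where the difference was wider at 0.64 (0.0506). It was also lost without Ov4Carbo4 replicate 2 (0.0948), Ov4Carbo4 replicate 3 (0.0995) or Ov4Cis replicate 2 (0.123).

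The other subunits of polymerase zeta did not show one common change. They were picked for their role after their values were seen, as was PCNA. MAD2L2 (REV7), which bridges REV3L and REV1, changed by -0.12 to 0.22 on the log2 scale, with the lowest adjusted p at 0.227. POLD2, an accessory subunit shared with polymerase delta, fell by 0.41 in Ov4Carbo, fell by 0.64 in Ov4Carbo4 and fell by 0.60 in Ov4Carbo7, with adjusted p of 0.0105, 4.41e-04 and 5.60e-04. In Ov4Cis its change was -0.18 (adjusted p = 0.207). POLD3, the other shared subunit, fell by 0.32 in Ov4Carbo4 (adjusted p = 0.0265) and by 0.53 in Ov4Carbo7 (adjusted p = 0.00122).

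REV3L was also set beside its neighbours on chromosome 6, the 10 measured genes on each side in RefSeq gene order, a window chosen after the values were seen. In Ov4Carbo4 the neighbours were lower too, with a median log2 fold change of -0.85 and 16 of 20 passing as lower, where 18% of all genes did. Their medians were 0.11 in Ov4Cis, -0.11 in Ov4Carbo and -0.04 in Ov4Carbo7, with 4, 3 and 5 of 20 lower, where 16.4%, 16.2% and 20.4% of all genes were. REV3L had the lowest value of the 21 genes in Ov4Carbo, at -1.14, beside -1.14 for LAMA4 and -1.11 for FYN. It had the second lowest in Ov4Cis and the third lowest in both clones. TRAF3IP2 gave -0.50, -0.78, -1.28 and -1.08 in Ov4Cis, Ov4Carbo, Ov4Carbo4 and Ov4Carbo7, and KRT18P65 gave -1.20, -0.68, -1.12 and -1.32. Passing as higher were 5, 2, 0 and 4 of the 20 neighbours in these lines, where 19.8%, 17.7%, 21.6% and 22.2% of all genes were. The part of chromosome copy number in these values was not tested.

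**Figure D3:**
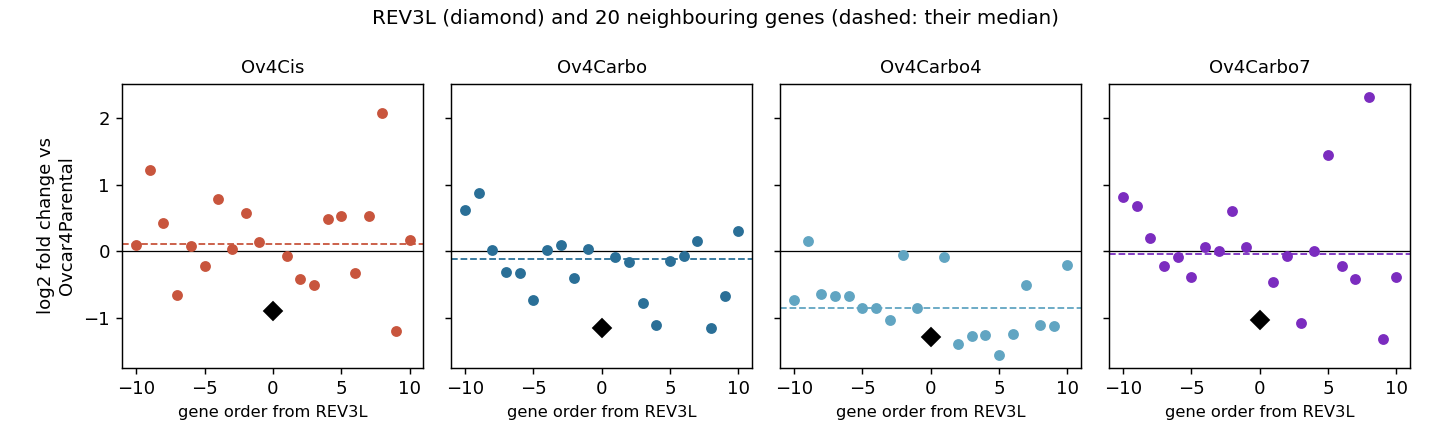
Log2 fold change against Ovcar4Parental (y axis) of REV3L (diamond) and 20 neighbouring genes (points) by gene order on chromosome 6 (x axis), with the neighbours' median dashed. The median is -0.85 in Ov4Carbo4 and between -0.11 and 0.11 in the other lines, while REV3L lies at -0.90 or lower in each.

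POLH (ENSG00000170734, chromosome 6), polymerase eta, copies past platinum crosslinks between adjacent guanines. It fell in both drug-selected populations. Its parental values were 3.58, 3.67 and 3.71 log2 RPKM. Ov4Cis gave 2.51, 2.88 and 2.83, and Ov4Carbo gave 3.29, 2.66 and 3.07. All 6 samples lay below the parental range. On the log2 scale the change was -0.91 in Ov4Cis (SE 0.15, adjusted p = 4.48e-04 by limma), which is 0.531 of the parental level, and -0.64 in Ov4Carbo (SE 0.15, adjusted p = 0.00637). Fitted on those 2 lines alone, the change in Ov4Carbo missed the threshold (adjusted p = 0.0722).

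In the clones POLH was lower by less. Ov4Carbo4 had POLH values of 3.40, 3.50 and 3.53, and Ov4Carbo7 had 3.11, 3.30 and 3.40. Both sets were below the parental values, yet neither passed, with changes of -0.18 (adjusted p = 0.387, 95% interval -0.51 to 0.15) and -0.38 (adjusted p = 0.0592, interval -0.71 to -0.05). The second passed without Ov4Cis replicate 1 (0.0486), Ov4Carbo replicate 1 (0.0323) or Ov4Carbo replicate 2 (0.0188), and with a variance trend (0.0476), the filter on low values (0.0492), log2(RPKM + 1) (0.0408) or the 2 lines alone (0.0333). With the title series term it was -0.81 (0.0288). Ov4Carbo7 and Ov4Carbo differed in POLH by 0.26 (adjusted p = 0.197). POLH was lower in Ov4Cis than in Ov4Carbo4 by 0.74 (adjusted p = 0.00187) and than in Ov4Carbo7 by 0.53 (adjusted p = 0.0148). Ov4Carbo4 exceeded its source population by 0.47 (adjusted p = 0.0260). With the title series term these 3 differences were -0.31, -0.11 and 0.19 and none passed. The second was lost without Ov4Carbo7 replicate 3 (0.0580) or Ov4Cis replicate 1 (0.0625). The third was lost without Ov4Carbo4 replicate 2 (0.0659) or 3 (0.0768) or Ov4Carbo replicate 2 (0.0949), and in a fit of the 2 lines alone (0.104). Around POLH, in the same window chosen after the values were seen, 11 of 20 neighbouring genes were lower in Ov4Cis (median -0.49). In Ov4Carbo 1 of 20 was (median 0.22), and in Ov4Carbo4 and Ov4Carbo7 1 and 2 were (medians 0.24 and 0.12). Of all genes 16.4%, 16.2%, 18% and 20.4% were lower in these lines in turn. Passing as higher were 2, 4, 7 and 6 of the 20 neighbours, where 19.8%, 17.7%, 21.6% and 22.2% of all genes were.

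REV1 (ENSG00000135945, chromosome 2), the deoxycytidyl transferase on which the bypass polymerases dock, was highest in the Ov4Carbo4 clone. Parental values were close together, at 3.11, 3.09 and 3.13 log2 RPKM. Ov4Carbo4 gave 3.69, 3.89 and 3.86, and Ov4Carbo gave 3.27, 3.68 and 3.39. Every sample of both lines was above the parental ones, and all Ov4Carbo4 samples were above all Ov4Carbo samples. Ov4Cis gave 3.35, 3.33 and 3.40, and Ov4Carbo7 gave 3.33, 3.05 and 3.05. Ov4Carbo7 overlapped the parental range, and Ov4Cis lay wholly above it.

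REV1 rose by 0.71 in Ov4Carbo4 (SE 0.12, limma adjusted p = 4.25e-04), a 1.63-fold level. The rise of 0.34 in Ov4Carbo (SE 0.12, adjusted p = 0.0391) was lost with a replicate block (0.0628), in a fit of the 2 lines alone (0.185), and on leaving out any 1 of 8 libraries, with adjusted p up to 0.135 without Ov4Carbo replicate 2. The clone exceeded its source population by 0.37 (adjusted p = 0.0228), a call lost without Ov4Carbo replicate 1 (0.0721) or 3 (0.0575), Ov4Carbo4 replicate 2 (0.0783) or 3 (0.0714), and in a fit of the 2 lines alone (0.118). Ov4Carbo7 was lower than Ov4Carbo4 by 0.67 (SE 0.12, adjusted p = 4.04e-04), and Ov4Cis was lower than Ov4Carbo4 by 0.45 (adjusted p = 0.00704). The change of 0.25 in Ov4Cis over the parental line did not pass (adjusted p = 0.109), but did in a fit of the 2 lines alone (0.0444). Ov4Carbo7 differed from Ov4Carbo by -0.30 (adjusted p = 0.0575), and this passed with the filter on low values (0.0485) and log2(RPKM + 1) (0.0473), and without Ov4Carbo replicate 1 (0.0197) or Ov4Carbo7 replicate 1 (0.0247). Ov4Carbo7 and the parental line, which adjoin at the bottom of the order, differed by 0.04 (95% interval -0.21 to 0.29).

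HLTF (ENSG00000071794, chromosome 3), a ubiquitin ligase and DNA translocase that reverses forks and extends the ubiquitin chain on PCNA, showed the same clone at the top. Ov4Carbo4 gave 5.90, 6.01 and 5.92 log2 RPKM, above each of the other 12 samples. The parental line gave 5.41, 5.09 and 5.04, and Ov4Carbo gave 4.82, 5.02 and 5.55, its replicate 3 standing above the other replicates. Ov4Carbo7 gave 4.99, 5.16 and 5.06, within the spread of Ov4Carbo. Ov4Cis gave 5.57, 5.56 and 5.48, above the parental values.

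HLTF rose in Ov4Carbo4 by 0.76 over the parental line (SE 0.16, limma adjusted p = 0.00232), a 1.70-fold level, and by 0.82 over Ov4Carbo (adjusted p = 0.00163). Ov4Carbo7 was lower than Ov4Carbo4 by 0.87 (SE 0.16, adjusted p = 6.15e-04), the widest gap between the clones among the 9 genes. In Ov4Cis the change of 0.36 did not pass (adjusted p = 0.101), but did without Ov4Carbo replicate 3 (0.0221). Ov4Cis exceeded Ov4Carbo7 by 0.47 (adjusted p = 0.0346), a call lost with a replicate block (0.0573), with the title series term (0.987) and without any 1 of the 6 libraries of these lines (0.0543 to 0.0968). The step from Ov4Carbo4 down to Ov4Cis, at 0.41, missed the threshold (adjusted p = 0.0564) and passed in 5 of the other settings and without 1 of 3 libraries, with adjusted p down to 0.00515 in a fit of the 2 lines alone.

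PRIMPOL (ENSG00000164306, chromosome 4), a primase and polymerase that reprimes ahead of a lesion, rose in both populations. Parental values were 0.87, 1.00 and 1.11 log2 RPKM. Ov4Carbo gave 1.44, 1.59 and 1.64, and Ov4Cis gave 1.32, 1.43 and 1.41. Both lay wholly above the parental samples. Ov4Carbo4 gave 1.24, 1.20 and 1.06, and Ov4Carbo7 gave 1.07, 1.20 and 1.18. The clones overlapped the parental range and lay wholly below Ov4Carbo.

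In Ov4Carbo the rise of PRIMPOL was 0.57 (SE 0.10, limma adjusted p = 7.67e-04), a 1.48-fold level, and in Ov4Cis 0.39 (SE 0.10, adjusted p = 0.00589). The changes of 0.17 in Ov4Carbo4 (adjusted p = 0.171) and 0.16 in Ov4Carbo7 (adjusted p = 0.201) did not pass. Compared with Ov4Carbo, Ov4Carbo4 was lower by 0.39 (adjusted p = 0.00597) and Ov4Carbo7 by 0.41 (adjusted p = 0.00554). With the title series term these differences were -0.27 (adjusted p = 0.131) and -0.29 (adjusted p = 0.144), and in fits of the lines compared alone the adjusted p were 0.0617 and 0.0717.

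POLK (ENSG00000122008, chromosome 5), polymerase kappa, which extends from mismatched or bulky ends, was lowest in the parental line, at 2.43, 2.43 and 2.50 log2 RPKM. Ov4Carbo7 gave 2.94, 2.97 and 2.87, and Ov4Cis gave 2.66, 3.13 and 2.82. Both exceeded the parental range. POLK rose by 0.47 in Ov4Carbo7 (SE 0.14, limma adjusted p = 0.0141) and by 0.42 in Ov4Cis (SE 0.14, adjusted p = 0.0288). The first was 0.16 with the title series term (adjusted p = 0.630), and the second was lost without any 1 of 5 libraries, all 3 parental ones among them (0.0518 to 0.129), and in a fit of the 2 lines alone (0.0560). Changes of 0.23 in Ov4Carbo and 0.30 in Ov4Carbo4 did not pass, though the latter did in a fit of the 2 lines alone (0.0475). No 2 resistant lines differed in POLK, and the widest gap, of Ov4Carbo7 over Ov4Carbo, was 0.25 (adjusted p = 0.174).

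POLI (ENSG00000101751, chromosome 18), polymerase iota, an error-prone inserter, had the lowest level and the widest replicate spread, with a median SD of 0.27. Parental values were 0.67, 0.15 and 0.01 log2 RPKM, and Ov4Carbo4 gave 0.83, 1.02 and 0.94. The rise of 0.65 in Ov4Carbo4 passed (SE 0.22, limma adjusted p = 0.0347), yet with a replicate block it did not (0.0505). It was also lost without any 1 of 5 libraries of the lines compared, with adjusted p from 0.0573 to 0.125. Ov4Carbo7 gave 0.51, 0.14 and 0.10 and was lower than Ov4Carbo4 by 0.68 (adjusted p = 0.0228), a call lost without any 1 of 4 libraries of the clones (0.0561 to 0.0745). Ov4Cis and Ov4Carbo lay between, with changes of 0.52 (adjusted p = 0.0909) and 0.47 (adjusted p = 0.126) over the parental line. Without parental replicate 1, the highest parental value, these were 0.72 (0.0297) and 0.67 (0.0417). Without Ov4Carbo replicate 1, at 0.28 against 1.06 and 0.90 in its fellows, they were 0.52 (0.0445) and 0.70 (0.0198).

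RAD18 (ENSG00000070950, chromosome 3), the ubiquitin ligase that marks PCNA, varied within 0.34 log2 units between lines. Ov4Carbo was highest, at 3.99, 3.97 and 4.07 log2 RPKM. Ov4Carbo4 gave 3.67, 3.68 and 3.66, and Ov4Carbo7 gave 3.70, 3.61 and 3.71. All clone samples were below all Ov4Carbo samples. RAD18 was lower than in Ov4Carbo by 0.34 in Ov4Carbo4 (SE 0.09, limma adjusted p = 0.00918) and by 0.33 in Ov4Carbo7 (SE 0.09, adjusted p = 0.0119). With the title series term the differences were -0.32 (0.0840) and -0.31 (0.117), and in fits of the lines compared alone the adjusted p were 0.0619 and 0.101. The second also missed the threshold without Ov4Carbo7 replicate 2 (0.0508). Against the parental line RAD18 did not pass in any line. The changes were -0.22 in Ov4Carbo4 (adjusted p = 0.0669) and -0.21 in Ov4Carbo7 (adjusted p = 0.0722), and both passed without Ov4Cis replicate 1 (0.0430 and 0.0474). Ov4Cis exceeded Ov4Carbo4 by 0.22 (adjusted p = 0.0633) and Ov4Carbo7 by 0.21 (adjusted p = 0.0791). These differences also passed without Ov4Cis replicate 1 (0.0183 and 0.0220).

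POLQ (ENSG00000051341, chromosome 3), polymerase theta, passed in 0 of 10 comparisons by limma, also at an unadjusted p under 0.05, and its line means ran from 3.43 to 3.72 log2 RPKM. The parental samples gave 3.72, 3.33 and 3.58, and Ov4Carbo gave 3.66, 4.07 and 3.44, the most spread. Changes against the parental line lay between -0.12 and 0.18. Their 95% intervals ran from -0.45 to 0.51, so a 2-fold change in either direction lay outside them in each line. Leaving out Ov4Carbo replicate 3 made Ov4Carbo7 lower than Ov4Carbo by 0.43 (adjusted p = 0.0450).

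Order of level was resolved in few places. Among the 36 steps between adjoining lines in the order of means, 2 passed, from the parental line to Ov4Cis in REV3L and from Ov4Carbo4 to Ov4Carbo in REV1. Over the 15 samples, which share libraries and line of origin, REV1 and POLI had a Pearson r of 0.78 and REV1 and HLTF of 0.69. POLH and PRIMPOL were the most opposed pair, at -0.70. These are descriptions of the same 15 libraries. With REV3L, the genes of most similar course among 11570 were PROM1 (r = 0.96), FNDC1 (0.96), NPTX2 (0.95), ARHGEF17 (0.95) and CSRP1 (0.93), and the most opposed were MSI2 (-0.97), KANSL1 (-0.96), DDX42 (-0.95), DPM2 (-0.95) and TACO1 (-0.94). Among the genes most like POLH were ARSK (0.95), C15orf39 (0.95), TENT5B (0.94) and CTNND1 (0.94), and it was most unlike RSAD1 (-0.95), CCDC88A (-0.94), C17orf58 (-0.94), SLC38A6 (-0.93) and TAF15 (-0.92).

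The clones were also compared with the population they came from. Ov4Carbo4 differed from Ov4Carbo in 5 of the 9 genes, with REV1, HLTF and POLH higher and RAD18 and PRIMPOL lower, where 42.2% of all genes passed, 23.1% higher and 19.2% lower. The count was 3 without Ov4Carbo4 replicate 2 or replicate 3, where 34.3% and 32.6% of all genes passed. Ov4Carbo7 differed in 2, RAD18 and PRIMPOL, both lower, where 36.6% passed, 18.5% higher and 18.2% lower. Without Ov4Carbo replicate 1 that count was 5 against 43.6% of all genes, and without Ov4Carbo7 replicate 2 it was 1 against 28.2%. Between the clones, REV1, HLTF and POLI were lower in Ov4Carbo7, so that 3 of 9 passed against 51.1% of all genes, 24% higher and 27.1% lower. Ov4Cis and Ov4Carbo differed in 0 of 9 by limma against 34.2% (18.1% higher, 16.1% lower), and the lowest unadjusted p was 0.0243, for HLTF. That count was 1 with a variance trend (35.5% of all genes), where HLTF was higher in Ov4Cis by 0.41 (adjusted p = 0.0439). It was also 1 without Ov4Carbo replicate 2 (POLH, with 30.1% of all genes passing) or replicate 3 (HLTF, with 29%). Ov4Cis differed from Ov4Carbo4 in 3 genes against 44% (21.7% higher, 22.3% lower), with POLH and REV1 lower and REV3L higher in Ov4Cis. From Ov4Carbo7 it differed in 2 against 39.2% (20.1% higher, 19.1% lower), POLH lower and HLTF higher. That last count was 0 without Ov4Carbo7 replicate 3, where 33.1% of all genes passed. It was 1 without any other replicate of Ov4Carbo7 or Ov4Cis, where 30.8% to 36% of all genes passed. Without Ov4Cis replicate 1 both calls were lost, and the gene passing was RAD18, higher in Ov4Cis by 0.30 (adjusted p = 0.0220). Of all genes, 14.2%, 13.3%, 20.9%, 13.8%, 16.8% and 14.7% passed at 2-fold in these 6 comparisons in turn, and 0 of the 9 did in each.

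Genes that act around these 9 were taken from lists written from general knowledge. Of 17 genes for PCNA and its ubiquitin cycle, 3 rose and 1 fell in Ov4Cis, and 2 rose and 2 fell in Ov4Carbo. In Ov4Carbo4 2 rose and 3 fell, and in Ov4Carbo7 1 rose and 8 fell. Of all genes 19.8%, 17.7%, 21.6% and 22.2% rose in these lines in turn, and 16.4%, 16.2%, 18% and 20.4% fell. NPLOC4, a cofactor of the VCP unfoldase that extracts ubiquitinated proteins from chromatin, rose in every resistant line, by 0.41 in Ov4Carbo to 0.61 in Ov4Carbo7 (largest adjusted p = 0.00787). SHPRH, a relative of HLTF that also extends PCNA ubiquitin chains, fell by 0.57 in Ov4Carbo4 (adjusted p = 8.68e-04) and by 0.87 in Ov4Carbo7 (adjusted p = 2.89e-05). PCNA itself fell by 0.41 in Ov4Carbo (adjusted p = 0.0250) and by 0.67 in Ov4Carbo7 (adjusted p = 8.87e-04). UBE2N, which builds the chains with SHPRH or HLTF, rose by 0.42 in Ov4Cis and by 0.51 in Ov4Carbo (adjusted p = 0.0357 and 0.0159) and fell by 0.42 in Ov4Carbo7 (adjusted p = 0.0312). PCLAF, a PCNA-binding factor, fell by 1.04 in Ov4Carbo7 (adjusted p = 0.0140). In Ov4Cis UFD1, the partner of NPLOC4, rose by 0.57 (adjusted p = 0.0284), and USP7, a deubiquitinase, fell by 0.41 (adjusted p = 0.00141). CUL4A, the scaffold of a ligase that acts with PCNA, fell by 0.41 in Ov4Carbo (adjusted p = 0.00303). DTL, the substrate adaptor of that ligase, rose by 0.65 in Ov4Carbo4 (adjusted p = 0.00366).

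In the list of 12 other polymerases and subunits, 1 rose and 1 fell in Ov4Cis and in Ov4Carbo. In Ov4Carbo4 1 rose and 3 fell, and in Ov4Carbo7 2 rose and 5 fell. The shares of all genes in these lines were 19.8%, 17.7%, 21.6% and 22.2% higher, and 16.4%, 16.2%, 18% and 20.4% lower. POLL, a gap-filling polymerase, rose by 0.43 in Ov4Carbo (adjusted p = 0.00548) and by 0.58 in Ov4Carbo7 (adjusted p = 4.43e-04). POLD1, the catalytic subunit of polymerase delta, fell by 0.69 in Ov4Cis (adjusted p = 4.84e-04) and by 0.39 in Ov4Carbo7 (adjusted p = 0.0179). POLD4, its smallest subunit, rose by 0.79 in Ov4Carbo7 (adjusted p = 0.00234) and by 0.48 in Ov4Cis (adjusted p = 0.0401), and fell by 0.86 in Ov4Carbo4 (adjusted p = 0.00141). HELQ, a helicase, rose by 0.36 in Ov4Carbo4 (adjusted p = 0.0336).

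Of 20 measured genes of fork remodelling and the replication checkpoint, 3 rose and 3 fell in Ov4Cis, and 4 and 4 in Ov4Carbo. In Ov4Carbo4 5 rose and 2 fell, and in Ov4Carbo7 1 rose and 9 fell. Among all genes 19.8%, 17.7%, 21.6% and 22.2% rose in these lines in turn, and 16.4%, 16.2%, 18% and 20.4% fell. FBH1, a helicase that reverses forks, rose in every resistant line, by 0.27 in Ov4Carbo7 to 0.53 in Ov4Carbo4 (largest adjusted p = 0.0173). WEE1, the kinase that restrains CDK activity, fell by 0.81 in Ov4Cis, by 0.89 in Ov4Carbo and, in Ov4Carbo7, fell by 0.94 (largest adjusted p = 0.00805), and its change in Ov4Carbo4 was -0.03. RPA2, of the single-strand binding complex, rose by 0.67 in Ov4Carbo4 (adjusted p = 1.60e-04), and its partner RPA3 by 0.34 in Ov4Carbo (adjusted p = 0.0346). HUS1, of the checkpoint clamp, fell by 0.49 in Ov4Carbo4 (adjusted p = 0.00413).

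Proliferation genes were also lower in Ov4Carbo7. Of 10 such genes 7 fell and 1 rose there, with a median of -0.40, and CDK1 fell by 0.98 (adjusted p = 1.56e-05). By line, 3 fell and 1 rose in Ov4Cis, 5 fell and 1 rose in Ov4Carbo, and 0 fell and 2 rose in Ov4Carbo4. TOP2A rose in all 4 lines. Among all genes 16.4%, 16.2%, 18% and 20.4% fell in Ov4Cis, Ov4Carbo, Ov4Carbo4 and Ov4Carbo7, and 19.8%, 17.7%, 21.6% and 22.2% rose. CCNA2, cyclin A, fell by 0.57 in Ov4Cis and by 0.81 in Ov4Carbo (adjusted p = 0.00800 and 0.00125). The part of proliferation in the other lists was not tested. Of 8 partners of polymerase theta in end joining, 3 rose and 0 fell in Ov4Cis, and 1 rose and 0 fell in Ov4Carbo. In Ov4Carbo4 3 rose and 1 fell, and in Ov4Carbo7 1 rose and 2 fell. The shares of all genes that rose were 19.8%, 17.7%, 21.6% and 22.2% in these lines in turn, and 16.4%, 16.2%, 18% and 20.4% fell. NBN rose by 0.82 in Ov4Cis (adjusted p = 7.25e-04), and LIG3, a ligase, rose by 0.38 there (adjusted p = 0.0117) and fell by 0.63 in Ov4Carbo7 (adjusted p = 3.44e-04). RBBP8 (CtIP), which starts end resection, rose by 0.46 in Ov4Carbo (adjusted p = 0.00208) and by 0.39 in Ov4Carbo7 (adjusted p = 0.00348), and fell by 0.27 in Ov4Carbo4 (adjusted p = 0.0307). FEN1, a flap nuclease, rose by 0.51 in Ov4Carbo4 (adjusted p = 0.0292).

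**Figure D4:**
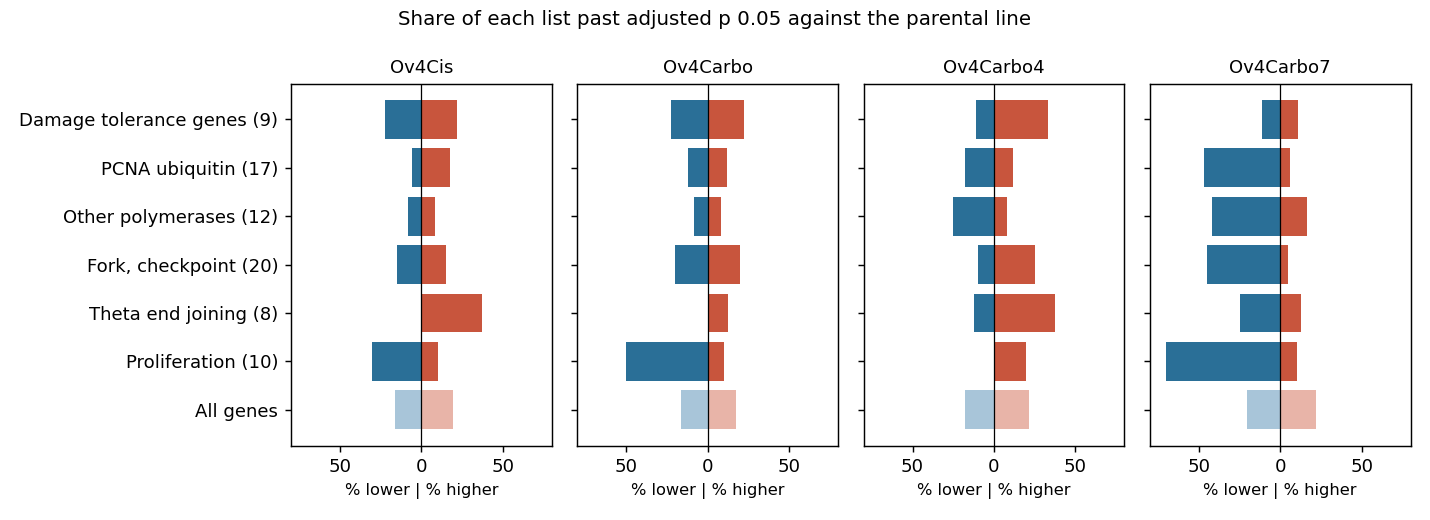
Percentage of each list past an adjusted p of 0.05 against Ovcar4Parental, lower to the left and higher to the right (x axis), with the number of measured genes in brackets and all genes in pale bars. In Ov4Carbo7 the PCNA, polymerase, fork and proliferation lists lean to lower values, with 8 of 17, 5 of 12, 9 of 20 and 7 of 10 genes. Of all genes 20.4% were lower there.

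Schlafen genes and interferon-response genes were set beside the list because SLFN11, a Schlafen gene that blocks stalled forks, is itself interferon-inducible. Of 5 other Schlafen genes 3 had a row. SLFN12 rose by 1.05 in Ov4Cis (adjusted p = 0.00936), SLFN13 fell by 0.88 in Ov4Carbo7 (adjusted p = 4.21e-04), and SLFN5, named after its values were seen, rose by 0.93 in Ov4Carbo with overlapping samples (adjusted p = 0.0294). Of 15 measured interferon-response genes 13 rose in Ov4Carbo7, 11 in Ov4Carbo, 5 in Ov4Cis and 2 in Ov4Carbo4. Among all genes 22.2%, 17.7%, 19.8% and 21.6% rose in these lines in turn. In Ov4Carbo4 1 fell, where 18% of all genes did. OAS1 rose by 3.53 in Ov4Cis and by 3.77 in Ov4Carbo, and IFI44 by 4.07 in Ov4Carbo7 (largest adjusted p = 0.00106). In Ov4Carbo4 IFIT1 rose by 1.72 (adjusted p = 0.0149) and RIGI, an RNA sensor, fell by 1.30 (adjusted p = 0.0231).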

How the data were processed

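Total RNA from 15 cultured samples was sequenced after polyA capture, per the labels' protocols. The authors deposited log2 RPKM, which the table's name says had conditional quantile normalization (cqn) and a threshold of unstated rule. The submitters' processing notes name BWA 0.7.15-r1140, HTSeq, hg19 and GRCh37, with no role given; strand handling is not given in the sources used here. Upper quartiles are equal in all samples, so changes in total RNA cannot be seen. Depth is unknown.

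Ensembl identifiers were matched to symbols (15585 genes). A model with 1 coefficient per line was fitted to all 16604 genes with limma 3.58.1 in R 4.3.3 (two-sided), for 10 pairs of lines, with Benjamini-Hochberg adjustment over all genes within each pair. A gene passed at an adjusted p under 0.05. The fit was tested on simulated data. The members and lists were chosen with earlier results of these data known. All members were named. List genes were named where they passed in the same direction in all 4 resistant lines, or had the largest rise or fall in a line with separate samples and a mean of at least log2 RPKM 1. Genes most like a member were taken for the 2 members of widest range. One such gene is not reported here. The GC box, CCAAT and E-box motifs were added after the data were seen. Alternatives were another variance model, normalization, low-value filter (12037 genes), pseudocounts 1 and 0.1, thresholds, samples in the fit, a replicate block, a title series term and each replicate left out. RefSeq (GRCh38.p14) gave gene order and promoters only. Python 3.11.15, pandas 2.3.3 and matplotlib 3.10.9 were used.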

Additional observations from a re-analysis of the deposited data

Results flagged for a closer look

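Because the parental line cancels, a test between 2 resistant lines is also a test of whether their changes against the parental line differ. Of 54 such tests over the 9 genes and 6 pairs of resistant lines, 15 passed in 7 genes, where 41.2% of such tests over all genes passed. The change of POLH in Ov4Carbo4 exceeded that in Ov4Carbo by 0.47, and the change in Ov4Cis differed by -0.74 from that in Ov4Carbo4 and by -0.53 from that in Ov4Carbo7. For POLI the change in Ov4Carbo7 differed by -0.68 from that in Ov4Carbo4. The change of REV1 in Ov4Carbo4 exceeded that in Ov4Carbo by 0.37, and the changes in Ov4Carbo7 and Ov4Cis differed from that in Ov4Carbo4 by -0.67 and -0.45. For REV3L the change in Ov4Cis differed by 0.39 from that in Ov4Carbo4, both being falls. RAD18 in Ov4Carbo4 and Ov4Carbo7 differed from Ov4Carbo by -0.34 and -0.33, and PRIMPOL by -0.39 and -0.41. For HLTF the change in Ov4Carbo4 exceeded that in Ov4Carbo by 0.82, that in Ov4Carbo7 differed from Ov4Carbo4 by -0.87, and that in Ov4Cis exceeded Ov4Carbo7 by 0.47. The values are limma differences on the log2 scale, and those that rest on 1 library or on the title series are named with their genes above.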

How the results depend on the processing

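The falls of REV3L in all 4 lines passed in each of the 24 alternative fits and at an adjusted p under 0.01, and that in Ov4Cis did not reach 2-fold. Counts of genes passing moved as follows. Shares in brackets are of all genes under the same setting. With a 2-fold minimum they were 0 in Ov4Cis and 1 in each of Ov4Carbo, Ov4Carbo4 and Ov4Carbo7 against the parental line, and 0 between any 2 resistant lines. At an adjusted p under 0.01 they were 1 for Ov4Carbo7 against the parental line (29%), 3 and 1 for Ov4Carbo4 and Ov4Carbo7 against Ov4Carbo (26.4% and 22.4%), 0 for Ov4Cis against Ov4Carbo7 (25.8%), and 5 in the F-test (60.7%). Fitting only the lines compared gave 2 for Ov4Carbo against the parental line (14.1%), and 1 and 0 for Ov4Carbo4 and Ov4Carbo7 against Ov4Carbo (27% and 20.3%). The title series term gave 2 and 0 for these clone comparisons (27.6% and 18.2%) and 0 for Ov4Cis against Ov4Carbo7 (25.3%). The filter on low values removed POLI, so it gave no value for it. For Ov4Cis against Ov4Carbo a variance trend and log2(RPKM + 1) gave 1 each (35.5% and 35.1%). These 2 settings and the filter on low values also gave 3 for Ov4Carbo7 against the parental line, with POLH added (43.7%, 43.1% and 42.5%). They gave 4 for Ov4Cis against Ov4Carbo4, with HLTF added (44.9%, 45.1% and 45.1%). The filter and log2(RPKM + 1) gave 3 for Ov4Carbo7 against Ov4Carbo, with REV1 added (38% and 37.1%). The replicate block gave 1 for Ov4Cis against Ov4Carbo7 (36.6%), and removed 4 single calls in all, each given above. The numbers share no stated culture or day: the 30 same-numbered pairs had correlations of their deviations from -0.39 to 0.44, and 4 of 15 samples correlated best with their own number.

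Leaving out each of 15 replicates gave 3 to 5 genes for Ov4Cis, Ov4Carbo and Ov4Carbo4 against the parental line, 2 to 4 for Ov4Carbo7 (4 without Ov4Cis replicate 1), 3 to 5 for Ov4Carbo4 and 1 to 5 for Ov4Carbo7 against Ov4Carbo, 2 to 4 between the clones, 0 to 1 for Ov4Cis against Ov4Carbo, 2 to 4 against Ov4Carbo4, 0 to 3 against Ov4Carbo7, and 6 to 8 in the F-test. Over all genes the shares ranged from 24.4% to 46.8% against the parental line, from 24.8% to 55% between resistant lines, and from 71.3% to 82.5% in the F-test. The sign turned in 13 values with the title series term and in 31 with a replicate left out, and none of the differences had passed before. With the title series term the turned values were -0.021 for POLH and -0.051 for REV3L in Ov4Carbo7 against Ov4Carbo, -0.014 for POLK in Ov4Carbo4 against the parental line, -0.14 in Ov4Carbo4 against Ov4Carbo and 0.26 in Ov4Cis against Ov4Carbo7. For POLI they were 0.67 in Ov4Carbo7 against the parental line, -0.18 in Ov4Cis against Ov4Carbo and -0.16 against Ov4Carbo7, for REV1 -0.047 in Ov4Cis against Ov4Carbo7, and for POLQ 0.011 in Ov4Carbo4 against the parental line. HLTF gave 0.10 and 0.35 in Ov4Carbo and Ov4Carbo7 against the parental line and 0.25 in Ov4Carbo7 against Ov4Carbo. The cause was not tested.

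With a replicate left out, the ranges that crossed 0 were -0.26 to 0.10 for HLTF in Ov4Carbo against the parental line, -0.18 to 0.0069 in Ov4Carbo7 against it and -0.21 to 0.15 in Ov4Carbo7 against Ov4Carbo. For POLI they were -0.047 to 0.34 in Ov4Carbo4 against Ov4Carbo, -0.16 to 0.17 in Ov4Carbo7 against the parental line and -0.18 to 0.21 in Ov4Cis against Ov4Carbo. For POLK they were -0.048 to 0.18 in Ov4Carbo4 against Ov4Carbo, and -0.0089 to 0.23 and -0.18 to 0.052 in Ov4Cis against Ov4Carbo4 and Ov4Carbo7. POLQ gave -0.19 to 0.0025 in Ov4Carbo4 against the parental line, -0.086 to 0.030 between the clones, and -0.087 to 0.034 and -0.053 to 0.063 in Ov4Cis against Ov4Carbo4 and Ov4Carbo7. Between the clones PRIMPOL gave -0.068 to 0.027 and RAD18 -0.011 to 0.041, and RAD18 gave -0.061 to 0.082 in Ov4Cis against the parental line. REV1 gave -0.058 to 0.086 in Ov4Carbo7 against the parental line and -0.17 to 0.027 in Ov4Cis against Ov4Carbo.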

Other observations

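Genes that overlap the 9 in RefSeq, by their whole span from start to end, were read from the same fit. Reads from a stretch that both genes transcribe may not be told apart without strand. Strand handling is not given in the sources used here, and whether the exons overlap was not examined. TRAF3IP2-AS1, an antisense RNA that overlaps REV3L, fell by 1.40 in Ov4Carbo4 (limma adjusted p = 1.11e-05) and by 0.42 in Ov4Cis (adjusted p = 0.0367), and its changes in Ov4Carbo and Ov4Carbo7 were -0.16 and -0.08, where REV3L fell by 1.14 and 1.03. BRD7P4, a pseudogene that also overlaps REV3L, fell by 0.46 in Ov4Carbo7 (adjusted p = 0.00390), and changed by -0.06, -0.08 and -0.09 in the other lines. CENPU, which overlaps PRIMPOL, fell by 0.73 in Ov4Carbo7 (adjusted p = 0.00253), where PRIMPOL changed by 0.16. EIF5B, which overlaps REV1, changed by -0.15 in Ov4Carbo4 (adjusted p = 0.538), where REV1 rose by 0.71. CERT1, which overlaps POLK, fell by 0.47 in Ov4Carbo4 (adjusted p = 0.0381). GTPBP2, which overlaps POLH, passed in no line against the parental line, with changes from -0.68 to 0.68. It was lower in Ov4Cis than in Ov4Carbo7 by 1.11 (adjusted p = 0.0150), where POLH was lower by 0.53. It was also lower in Ov4Cis than in Ov4Carbo (-1.36, adjusted p = 0.00600), where POLH did not pass, and in Ov4Carbo4 than in Ov4Carbo (-0.95, adjusted p = 0.0302), where POLH was higher. GYG1, which overlaps HLTF, rose in Ov4Cis by 0.32 over the parental line (adjusted p = 0.0389), where HLTF changed by 0.36. In Ov4Cis it exceeded Ov4Carbo by 0.31 (adjusted p = 0.0457), where HLTF differed by 0.41, and Ov4Carbo4 by 0.38 (adjusted p = 0.0143), where HLTF differed by -0.41. Its change in Ov4Carbo4 against the parental line was -0.06 (adjusted p = 0.697), where HLTF rose by 0.76. RPL7AP11, a pseudogene that overlaps POLQ, rose by 0.59 in Ov4Carbo4 (adjusted p = 0.0354).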
